A study of Equus caballus with 13 samples.

Results

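Among the genes that encode the matrix proteins of cartilage other than collagens, 7 were followed here: ACAN, HAPLN1, COMP, CILP, MATN3, SNORC and CNMD. They were chosen by name from the authors' tables of RNA kinetics, and all 7 of the 7 sought were listed in both tables, among 11056 genes in the table that compared ages and 11249 in the table that compared sexes. In old female chondrocytes the aggrecan RNA (ACAN) and the link protein RNA (HAPLN1) were made more slowly than in young female cells, with synthesis rates 0.542 and 0.475 times as high, whereas COMP was made 1.82 times as fast and the CILP RNA had a half-life 1.99 times as long. The implied level of an RNA, its synthesis rate times its half-life divided by ln 2, is the amount expected at a constant level. In young male chondrocytes the implied level of each of the 7 RNAs was higher than in young female cells, from 1.27-fold for HAPLN1 to 4.18-fold for CILP, as listed. Beside genes of similar half-life the log2 ratios of HAPLN1 (0.05) and MATN3 (−0.03) were near 0.

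Cartilage resists compression because aggrecan, a proteoglycan loaded with sulfated sugar chains, holds water inside the collagen network. Aggrecan is anchored along hyaluronan strands by link protein, and adaptor proteins such as COMP and the matrilins tie these aggregates to collagen fibrils. Chondrocytes are the cells that make all of these proteins, and the matrix genes tend to be turned down when the cells leave cartilage for culture.

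The series measured how fast RNAs were made and lost in horse chondrocytes and asked how age and sex bear on these rates. The labels gave 5 samples of old female, 5 of young female and 3 of young male horses, all of wild-type genotype, without ages in years, breed or joint. Every group, the young female cells included, had been released from cartilage, kept for 2 days in culture and given 4-thiouridine (4sU) for 4 h, a uridine analogue that marks RNA made during that time. All 13 samples had been given 4sU, so no background without it was among them. The tables gave 1 synthesis rate and 1 half-life per gene and group. Depth per sample is therefore unknown, no value below carries an SD or an n of its own, and the spread between animals is not in the tables, so differences are given by size without a test. The 13 samples carried 12 batch labels, with 1 label shared by 2 samples of different groups, so batch and group cannot be told apart. Both comparisons share the 5 young female samples.

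As a check of the cell type named in the labels, 8 of 9 chondrocyte markers (COL2A1, COL9A1, COL9A2, COL9A3, COL11A1, COL11A2, SOX9 and CHAD) were listed in both tables, against 1 of 5 endothelial markers (VWF) and 1 of 5 leukocyte markers (CD14). The summed implied level of these chondrocyte markers was 0.732 times as high in old as in young female cells (6 of 8 lower) and 3.21 times as high in young male cells (7 of 8 higher). Markers of dedifferentiated chondrocytes or fibroblasts were listed too, 6 of 7 in the age table and 7 of 7 in the sex table. They summed to 0.579 times the young female level in old cells (6 of 6 listed markers lower) and 2.74 times in young male cells (7 of 7 higher). Among them the type I collagen genes stood furthest out, COL1A1 at 0.138 and COL1A2 at 0.282 times the young female level in old cells, and at 18.3 and 10.5 times in male cells, beyond the ratio of any of the 7 matrix genes. Bone markers summed to 1.63 times the young female level in old cells and 2.38 times in male cells, with 3 of 4 listed. Of these, IBSP and SPP1 were higher and ALPL lower in old cells, and all 3 were higher in male cells. The part of these markers in the results below was not tested, and fewer cells of a type cannot be told apart from less RNA per cell.

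All 7 matrix RNAs were long-lived. Half-lives were read as hours, and the longest value in any column was 69.3 h, the ceiling of the authors' estimates, at which 3.92% of a gene's RNA would be new after 4 h of labelling if its level were constant. Their median in young female cells was 44.6 h by the age table, against 3.64 h for all genes. HAPLN1 had the shortest, at 13.5 h, which was still longer than that of 84.6% of genes. ACAN followed at 16.4 h, CILP at 31.7 h, MATN3 at 44.6 h, SNORC at 46.4 h and COMP at 65.2 h, and CNMD stood at the ceiling. The 2 RNAs of the aggrecan aggregate thus turned over faster than those of the adaptor and membrane proteins. They were also the only members within 1 to 24 h, the range that 4 h of labelling resolves best, in both groups of either table.

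HAPLN1 and ACAN stayed the shortest-lived of the 7, in this order, in each of the 3 groups. The order of the longer-lived members was not kept, because CILP passed MATN3 in old cells (63.0 against 45.8 h) and because COMP, MATN3, SNORC and CNMD were all listed at the ceiling in male cells. In that group 4 of 7 members were at the ceiling, compared with 1 of 7 in young female cells, while the share of all genes there was 2.59% in male and 0.951% in young female cells. A half-life listed at the ceiling may be longer than it says, so lengthening beyond that point was not detectable.

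**Figure D1:**
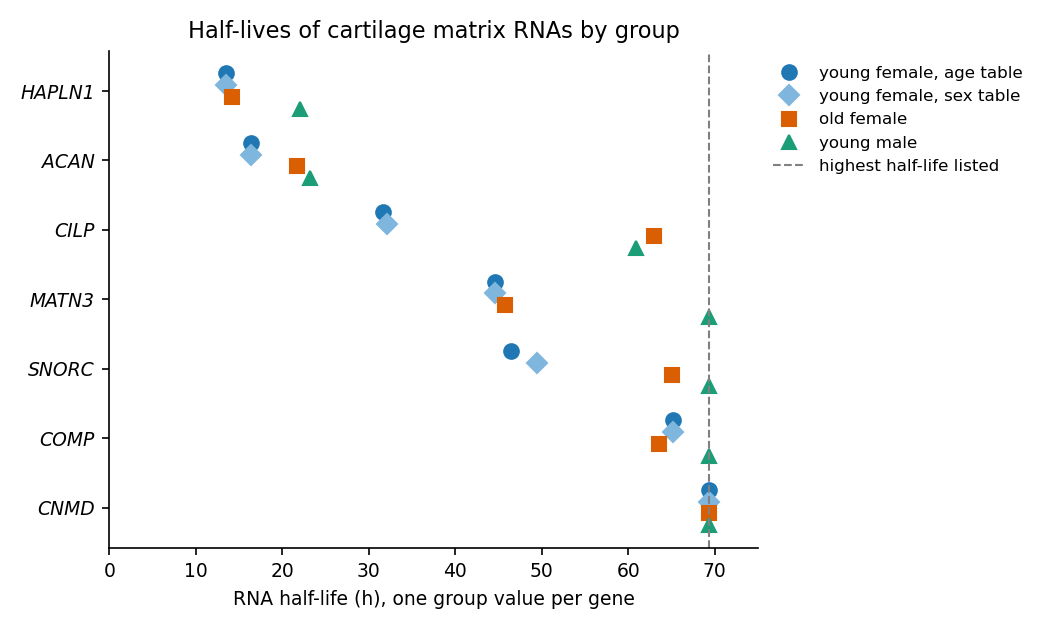
Half-life in hours (linear axis) of each of the 7 RNAs, with 1 marker per group value and the young female group shown once from each table; the dashed line is the longest half-life listed. HAPLN1 and ACAN sit at 13.5 to 23.2 h in every group, and 4 male markers lie on the ceiling of 69.3 h.

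The young female values could be compared between the tables, which were estimated from the same 5 samples. Half-lives of 6 of the 7 members differed by at most 0.019 log2 units. SNORC differed by 0.09, with 46.4 h in the age table and 49.4 h in the sex table, and 10.0% of shared genes differed more. Synthesis rates were lower in the sex table by a near-constant factor (log2 difference −0.06 to −0.09, and −0.16 for SNORC, against a median of −0.07 over all shared genes). Differences between groups that are smaller than these cannot be read, and this repeat holds no variation between animals. The implied level differed almost equally for all 7 members (log2 difference −0.0672 to −0.0665). For SNORC the longer half-life in the sex table thus came with a lower synthesis rate. Synthesis rate and half-life are therefore not separate measurements, and opposite differences in them may share an error.

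Aggrecan, encoded by ACAN, is the main proteoglycan of cartilage. Its synthesis rate, in the authors' units, was 28052 in young female against 15212 in old cells when the ages were compared, and 26820 in young female against 36520 in male cells when the sexes were. The half-life was 16.4 h in young female, 21.7 h in old and 23.2 h in male cells, so it was longer in both of the other groups while synthesis was lower in one and higher in the other. At a constant level these half-lives correspond to 15.5% of aggrecan RNA being new after labelling in young female cells, 12.0% in old and 11.3% in male cells.

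ACAN had a log2 synthesis ratio of −0.88 for old over young female cells, and 3.56% of genes had a lower one. Its half-life ratio was 0.40, and the implied level was 0.715 times as high in old cells (log2 −0.48). In male cells both parameters were higher, by 0.45 for synthesis and 0.50 for half-life, and the implied level was 1.93 times the young female one (log2 0.95), just under the 2-fold limit used for counting. Its half-life ratio was close to the median (0.51) of the 1098 genes in its decile of half-life, and 49.4% of them had a smaller one.

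Link protein, encoded by HAPLN1, locks aggrecan onto hyaluronan. Its synthesis rate was 8592 in young female and 4081 in old cells, and 8214 in young female and 6379 in male cells. Half-lives were nearly the same in young female (13.5 h) and old cells (14.1 h), and longer in male cells (22.0 h). The lower level of HAPLN1 in old cells thus lay almost wholly in synthesis, with a log2 ratio of −1.07 for synthesis, 0.07 for half-life and −1.01 for implied level, the lowest of the 7 members and lower than in 98.0% of genes. In male cells its synthesis was lower (−0.36) and its half-life longer (0.71). As listed, the implied level was 1.27 times as high, but beside genes of similar half-life its log2 ratio was 0.05.

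The partners of the aggregate did not keep step. In old cells the log2 ratio of implied level was 0.53 higher for ACAN than for HAPLN1, of which 0.33 came from half-life and 0.19 from synthesis. In male cells it was 0.60 higher for ACAN, with 0.81 from synthesis and −0.21 from half-life. Both differences are taken against the same young female samples, so their like size is not a separate result.

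COMP, cartilage oligomeric matrix protein, belongs to the thrombospondin family and binds collagens of the fibril surface. Its synthesis rate was 3792 in young female and 6896 in old cells, and 3624 in young female and 10320 in male cells. The half-life was 65.2 h in young female and 63.6 h in old cells and stood at the ceiling in male cells. Nearly the whole listed difference thus lay in synthesis, but in male cells this split rests on the ceiling. The log2 ratios of synthesis were 0.86 in old and 1.51 in male cells, and those of implied level were 0.83 (1.77-fold) and 1.60 (3.03-fold). COMP thus went the opposite way to ACAN in old cells, with a log2 ratio of synthesis 1.75 higher.

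CILP, cartilage intermediate layer protein, is a secreted matrix protein that binds TGF-beta. Its half-life was 31.7 h in young female and 63.0 h in old cells, and 32.1 h in young female and 60.9 h in male cells. Synthesis was 120 against 165 in the age table and 113 against 249 in the sex table, higher in old and male cells alike. CILP was the member with the highest implied level relative to young female cells in both comparisons, 2.74-fold in old cells (log2 1.45) and 4.18-fold in male cells (2.06). In old cells the larger part of this was half-life (0.99, against 0.46 for synthesis), whereas in male cells synthesis (1.14) and half-life (0.92) were closer to each other.

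The half-life ratio of CILP in old cells lay just under the 2-fold limit without centring and past it (1.08) once the median of all genes was set to 0, as did 1.69% of all genes in this direction. Of all genes 1.48% had a higher half-life ratio, and of the genes in its half-life decile 2.64% did. Centred on the median of that decile the ratio was 0.99, under the limit. In terms of labelling, 8.38% of CILP RNA would be new after 4 h in young female and 4.30% in old cells at a constant level, so the difference rests on small new fractions.

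MATN3, a matrilin that bridges collagen fibrils and aggrecan, differed little with age. Its synthesis rate was 553 in young female and 637 in old cells, with half-lives of 44.6 and 45.8 h and an implied level 1.18-fold higher in old cells. In male cells its synthesis was 446 against 528, and the half-life stood at the ceiling against 44.6 h. The listed log2 ratios there were −0.24 for synthesis, 0.63 for half-life and 0.39 for implied level (1.31-fold). After centring on all genes the synthesis ratio was 0.04, and beside genes of its own half-life decile the level ratio was −0.03, so no direction can be given for MATN3 in male cells.

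SNORC, a small transmembrane proteoglycan of cartilage, had a synthesis rate of 38.6 in young female and 28.6 in old cells, and of 34.6 in young female and 69.6 in male cells. Its half-life was 46.4 h in young female and 65.1 h in old cells, and 49.4 h in young female cells against the ceiling in male cells. In old cells synthesis was listed as lower (−0.43) and half-life as longer (0.49), and the implied level was 1.04-fold. Synthesis and half-life are not separate measurements, so these ratios cannot be read as opposing changes. In male cells the log2 ratio of synthesis was 1.01 and that of implied level 1.50 (2.82-fold). That synthesis ratio was 0.85 when young female cells were taken from the age table and 0.92 after the offset between the tables was removed, so its place past the 2-fold limit rests on which young female estimate is used.

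CNMD, chondromodulin, is a cartilage membrane protein whose released part inhibits blood vessel growth. Its half-life was at the ceiling in all 3 groups, so its half-life could not be compared. Synthesis was 2.00 in young female and 1.83 in old cells (log2 −0.13), and 1.91 in young female and 6.38 in male cells (1.74, or 3.34-fold). The ratio in male cells was the highest listed synthesis ratio of the 7, and 1.76% of genes had a higher one. With both half-lives at the ceiling it equals the ratio of implied level and says nothing separate about synthesis. CNMD also had the lowest synthesis rates of the 7.

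Over the 7 genes, the age comparison gave no common direction in synthesis rate or implied level. By a limit of 2-fold (an absolute log2 ratio of at least 1), 0 of 7 passed for half-life, against 3.53% of all genes, but 4 of the 7 were too near the ceiling to be listed as 2-fold longer. For synthesis rate 1 passed (HAPLN1, lower), against 7.52% of all genes in either direction and 2.92% lower. For implied level 2 passed (CILP higher, HAPLN1 lower), against 4.12% in either direction, 2.13% higher and 1.99% lower. With the young female values of the sex table HAPLN1 was at −0.94 and 1 member passed, and once the offset between the tables was removed 2 passed again. Synthesis was higher in 3 members and lower in 4 (median log2 ratio −0.13, all genes 0.08). Half-life was longer in 5 and shorter in 1 (median 0.07, all genes −0.08), and implied level was higher in 4 and lower in 3 (median 0.06, all genes 0.00). Of all genes, 60.2%, 36.5% and 50.7% were higher for synthesis, half-life and level. Once the median of all genes was set to 0, the half-life ratio was above 0 in 7 of 7 members. For CNMD, at the ceiling in both groups, and for COMP (−0.036 as listed) this came only from the shift by that median. Inside half-life deciles half-life was longer in 5 members, with 1 shorter. The implied level ratios lay on both sides of 0, from −1.01 to 1.45. At a lower limit of 0.5, 1, 3 and 3 members passed for half-life, synthesis and level, against 13.4%, 23% and 15.6% of all genes.

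In the sex comparison implied levels were higher in male cells for 7 of 7 members as listed, and for 6 of 7 (all but MATN3) beside genes of similar half-life. Of these 6, HAPLN1 (0.05) was too near 0 for a direction to be given. For implied level 4 of 7 passed the 2-fold limit, all higher in male cells (COMP, CILP, SNORC and CNMD), against 3% of all genes higher by this limit and 4.61% in either direction. The same 4 genes passed for synthesis rate, against 3.78% of all genes higher and 12.2% in either direction. Of these 4, COMP, SNORC and CNMD were at the half-life ceiling in male cells. Their synthesis ratios hold only if the listed half-lives do. For half-life 0 of 7 passed, against 7.58%, a count that the ceiling limits. COMP, MATN3, SNORC and CNMD had young female half-lives over 34.7 h and could not be listed as 2-fold longer. The median log2 ratio of synthesis was 1.01 where that of all genes was −0.28, and the median of implied level was 1.50 where that of all genes was 0.01. Both medians were lower over fewer members. Without SNORC and CNMD, the members outside the upper 75% of genes by synthesis rate, the medians were 0.45 and 0.95 and 2 members passed for each. Without the 4 members at the ceiling the medians were again 0.45 and 0.95 and 1 passed for each (CILP), and for ACAN and HAPLN1, whose half-lives were within 1 to 24 h in both groups, they were 0.040 and 0.64 and 0 passed. At a limit of 0.5, 4, 4 and 5 members passed for half-life, synthesis and level, against 31.8%, 41.1% and 25% of all genes, so the half-life count is to be read against a high background. ACAN (0.95) lay just under the 2-fold limit for level, and HAPLN1 and MATN3 had the smallest level ratios.

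**Figure D2:**
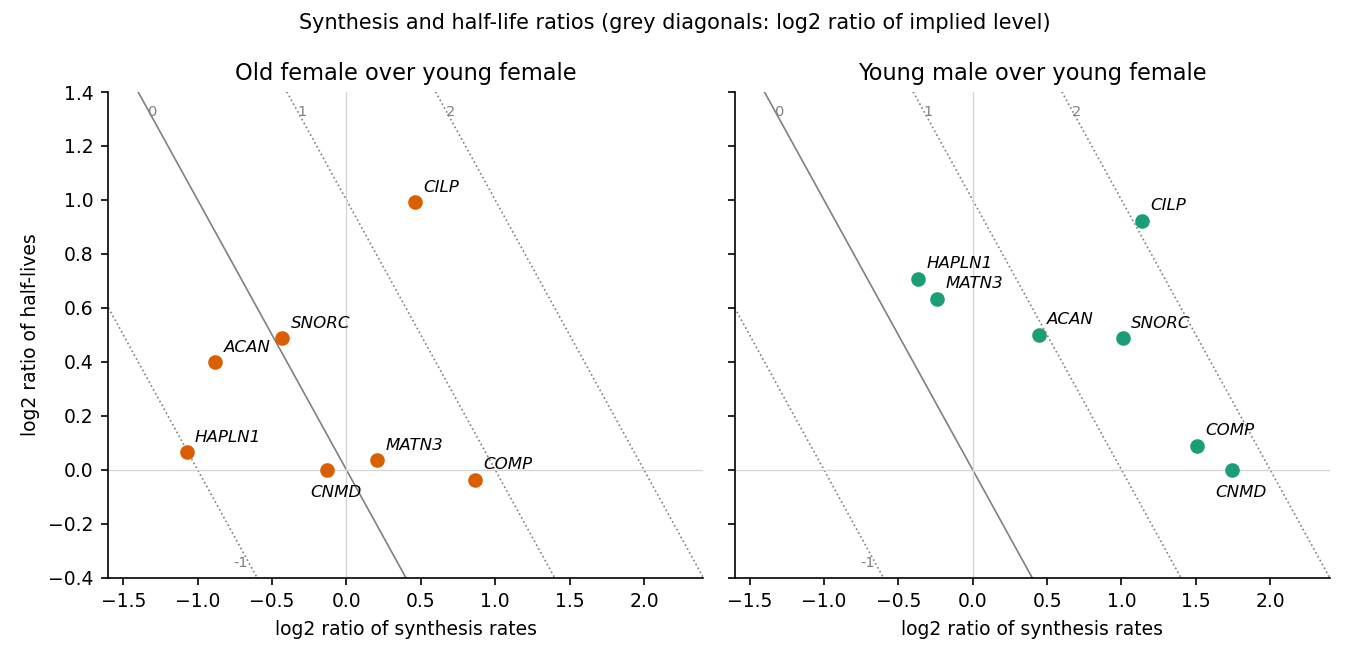
Each point is 1 of the 7 RNAs, with the log2 ratio of synthesis rates on the horizontal and of half-lives on the vertical axis, on the left for old and on the right for young male over young female cells; along a grey diagonal the log2 ratio of implied level is constant, at the value written on it. In old cells HAPLN1 and ACAN lie left of 0 and COMP right of it, and in male cells all 7 lie above the solid diagonal of equal level.

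Long-lived RNAs as a class had longer half-lives and higher implied levels in male cells, so the members were set beside genes of similar half-life. Deciles were formed from the old female half-life, which does not enter the male ratio, and 6 members fell in the longest-lived decile and HAPLN1 in the next. In the longest-lived decile the median log2 ratio was 0.51 for half-life, −0.05 for synthesis and 0.43 for implied level, and in the next it was 0.46, −0.16 and 0.29. Half-lives could not be compared with the decile median for all members, because the ceiling limited the log2 ratio to at most 0.09 for COMP, 0.49 for SNORC and 0 for CNMD. Of the others, ACAN was at the decile median (−0.0056 from it), HAPLN1 was 0.24 and CILP 0.42 above, and MATN3, itself at the ceiling in male cells, was 0.13 above. The levels of COMP, CILP, SNORC and CNMD were still past the limit (1.17, 1.64, 1.07 and 1.31), against 1.8% of genes that were higher by it when centred in the same way. Their synthesis ratios were so as well (1.56, 1.19, 1.06 and 1.79), against 5.04%. Both shares are over genes of all deciles. Within the longest-lived decile, 5.19% of genes had a higher level ratio than SNORC and 7.29% a higher synthesis ratio. The level ratio left for ACAN was 0.52, and for HAPLN1 it was 0.05. For COMP, SNORC and CNMD the split between synthesis and half-life rests on the ceiling.

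In old cells the same comparison, with deciles formed from the male half-life, moved little. The implied level ratio of CILP was then 1.38, that of COMP 0.75, that of ACAN −0.48 and that of HAPLN1 −1.0. SNORC was at −0.02 in place of 0.06, and so had no direction with age.

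**Figure D3:**
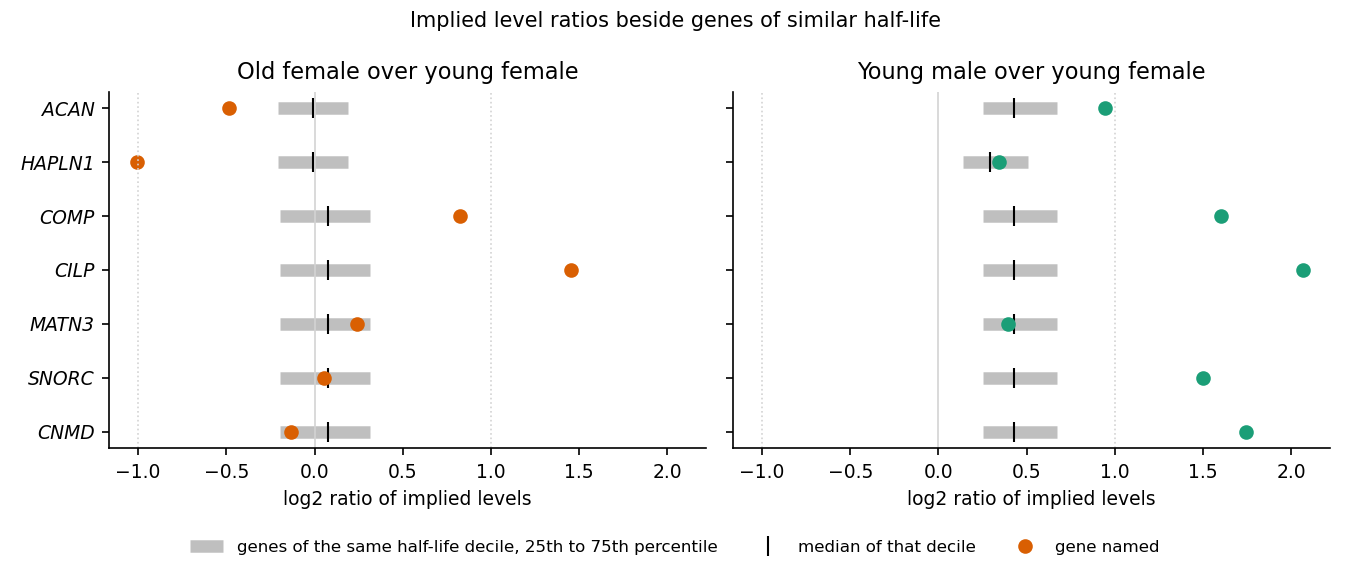
Log2 ratio of implied level for each of the 7 RNAs (points), beside the median (tick) and the 25th to 75th percentile (grey bar) of the genes in the same decile of half-life, for old on the left and young male on the right over young female cells. HAPLN1 and ACAN fall below their bars in old cells, COMP and CILP lie above theirs in both panels, and MATN3 lies within its bar in both.

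As listed, the implied level of each of the 7 RNAs relative to young female cells was highest in young male cells. Beside genes of similar half-life, no direction can be given for HAPLN1 and MATN3. For ACAN, HAPLN1 and CNMD the order was old, young female, young male, from 0.715, 0.497 and 0.913 times the young female level in old cells to 1.93, 1.27 and 3.34 times in male cells. For COMP, CILP, MATN3 and SNORC young female cells were lowest as listed, old cells were at 1.77, 2.74, 1.18 and 1.04 times their level, and male cells at 3.03, 4.18, 1.31 and 2.82 times. SNORC had no direction with age, so for it old and young female cells cannot be ordered. The place of old against male cells rests on 2 tables with a shared young female group, and without values per animal no neighbours in these orders can be said to differ.

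For each member, the gene with the most similar pattern was sought among 10268 other named genes, as the smallest Euclidean distance over 4 log2 ratios (synthesis and half-life in both comparisons, from 3 groups). CNMD was nearest to CHAD, which encodes chondroadherin, another cartilage matrix protein, at a distance of 0.14. Both were at the half-life ceiling throughout, so their half-life ratios were 0 in both comparisons and matched through the ceiling alone. COMP was nearest to ECRG4 (0.25), MATN3 to FARP1 (0.07), HAPLN1 to PTPRS (0.27) and ACAN to ARHGAP44 (0.30). SNORC and CILP had more distant neighbours, ANGPT2 (0.45) and ANGPTL7 (0.55). The likeness is one of numbers over 3 groups and covers no other condition.

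The genes that make, bind or cut the same matrix were described from lists. Of 15 genes of hyaluronan synthesis, binding and breakdown and of aggrecan assembly, 8 were listed. In old cells their implied levels had a median log2 ratio of −0.41, where that of all genes was 0.0048. Implied levels were lower in 7 of 8 and 3 were past 2-fold, all lower, against 1.99% of all genes lower by this limit. These 3 were VCAN (versican, an aggrecan relative, −1.68), HAPLN3 (a link protein relative, −1.65) and CD44 (the main hyaluronan receptor, −1.06), on the same side as ACAN and HAPLN1. The VCAN ratio rests on low synthesis rates, 4.71 in young female and 2.75 in old cells. Its young female half-life in this comparison was at the ceiling. In male cells the median of that list was −0.18, or −0.07 beside genes of similar half-life, with 3 of 8 higher where 50.5% of all genes were. VCAN (1.23) alone was past 2-fold in level, against 3% of all genes higher. Beside genes of similar half-life VCAN was at 0.80, under the limit. The summed implied level of the list was 1.29 times the young female one in old cells and 1.60 times in male cells. The sum and the median thus stood on opposite sides in both comparisons. CEMIP, a gene of hyaluronan breakdown, had by far the highest implied level of the list. Its level ratios were 0.55 in old and 0.82 in male cells, so the sums mostly follow CEMIP.

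Of 20 other non-collagen matrix genes of cartilage, 13 were listed. In old cells the implied levels of 7 were higher and of 6 lower (median log2 ratio 0.01), where MATN2 (a matrilin, 1.35) was past 2-fold upward and MATN4 (another matrilin, −1.17) downward, against 4.12% of all genes in either direction. In male cells 13 of 13 were higher and 9 were past 2-fold, with a median of 1.25, or 0.85 beside genes of similar half-life; of all genes, 50.5% were higher and 3% were higher by 2-fold. The largest ratios there were those of CILP2 (the paralogue of CILP, 2.56), MATN2 (2.38), THBS3 (a thrombospondin, as COMP is, 2.14) and CHAD (1.78). Beside genes of similar half-life these were still past 2-fold (2.14, 1.96, 1.71 and 1.35), as was CHADL (1.02), against 1.8% of genes higher. MATN4 (0.73), FN1 (0.91), SPARC (0.85) and SCRG1 (0.82) then fell under the limit, so fewer than 9 passed. CILP2 had a lower level in old cells (−0.44) where CILP had a higher one (1.45).

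Cartilage collagens and small leucine-rich repeat proteins, the matrix classes closest to the members, bracketed them in old cells. By median log2 ratio of implied level, the 6 collagen genes stood at −0.61 with 5 of 6 lower, the 7 members at 0.06, and the 9 listed small leucine-rich repeat genes at 0.71 with 6 of 9 higher. Of all genes, 50.7% were higher. Past 2-fold were 1 of the 6 collagen genes, lower (1.99% of all genes), and 4 of the 9 leucine-rich repeat genes, higher (2.13% of all genes). In male cells the medians were 1.60, 1.50 and 1.37, or 1.17, 1.07 and 0.94 beside genes of similar half-life, and every listed gene of the 3 classes was higher as listed. The median ratios were 1.19, 1.01 and 0.29 for synthesis and 0.47, 0.50 and 1.12 for half-life. As listed, 6 of the 9 leucine-rich repeat genes were past 2-fold in half-life, against 7.58% of all genes in either direction. The longest-lived decile as a whole had a median half-life ratio of 0.51. Beside genes of similar half-life the class medians for half-life were −0.041, −0.0056 and 0.62, so fewer of the 9 would pass. The half-life ceiling left the classes unequal room, since their median half-lives in young female cells were 37.8, 44.6 and 27.6 h, and 4 of the 7 members could not reach a 2-fold longer one. The split between synthesis and half-life therefore cannot be compared between the classes, and the differences in level were not tested.

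Enzymes and inhibitors that act on the members' proteins, 9 of 11 listed for age and 10 for sex, had median level ratios of −0.12 and 0.015. In old cells 3 were past 2-fold in level, all lower (ADAMTS12 −1.87, MMP3 −1.26 and ADAMTS4 −1.13, against 1.99% of all genes lower). In synthesis ADAMTS5 (1.04) was past 2-fold upward and ADAMTS12 (−1.64) downward with age, against 7.52% of all genes in either direction. In male cells 4 were higher (ADAMTS7 2.07, HTRA1 1.26, MMP13 1.25 and ADAMTS12 1.16), against 3% of all genes higher. Lower was 1 (ADAMTS9 −1.14, named outside the limit of 4 genes after its value was seen), against 4.61% in either direction. Most of these calls changed beside genes of similar half-life. MMP13 (1.06) was still past 2-fold there, whereas HTRA1 (0.83), ADAMTS12 (0.97) and ADAMTS9 (−0.92) were not. MMP3, at −0.89 as listed, was past it at −1.32, and ADAMTS7 had no such value. For synthesis in male cells 3 of 10 were higher, close to the 28.9% of all genes, and the median log2 ratio was −0.42 where that of all genes was −0.28. In synthesis 1 was past 2-fold higher there and 3 lower, against 3.78% of all genes higher and 12.2% in either direction. ADAMTS12 and ADAMTS7 are known to cut COMP, and ADAMTS7 was listed in the sex table only. Cartilage transcription factors, 7 of 8 listed, had short-lived RNAs (median half-life 1.16 h in young female cells) and 0 of 7 were past 2-fold in synthesis or level in either comparison. Of all genes, 7.52% passed for synthesis and 4.12% for level in old cells, as did 12.2% and 4.61% in male cells, so that a count of 0 among 7 genes is near the background. SOX9, the factor that switches on ACAN and other cartilage genes, had a level ratio of −0.49 (log2) with age. With sex it was −0.08 as listed and 0.27 beside genes of similar half-life, so no direction can be given there.

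**Figure D4:**
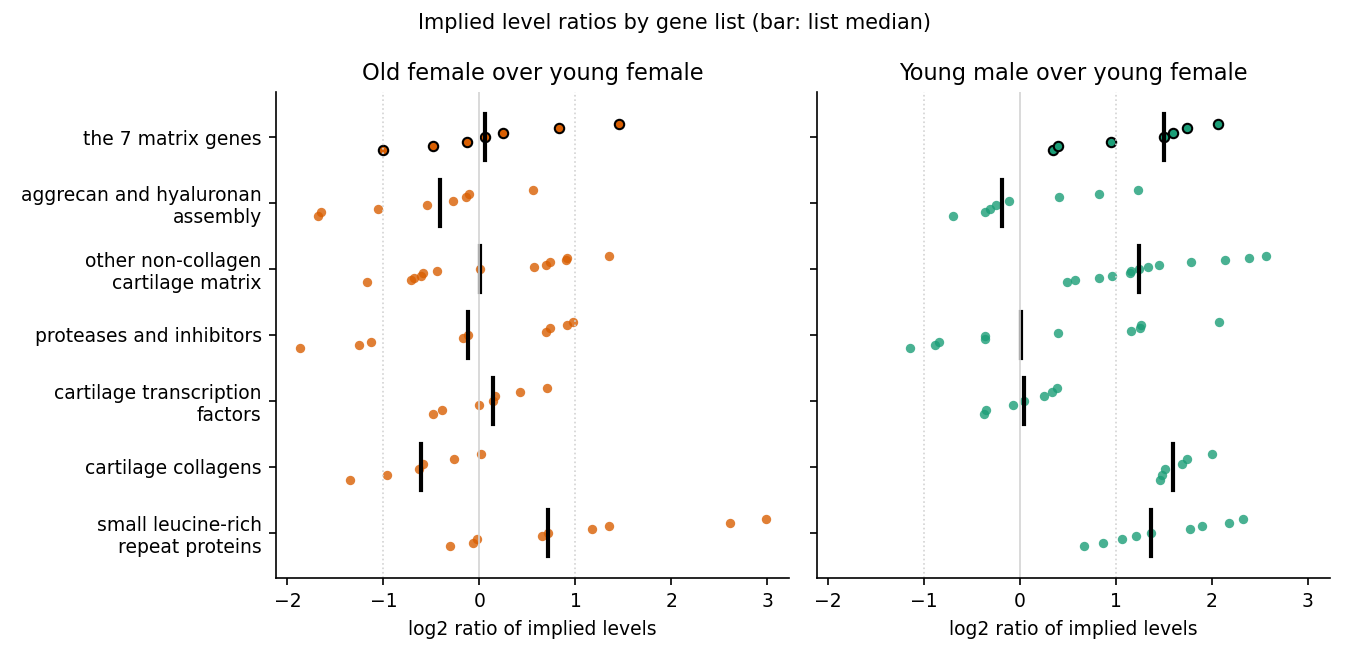
Log2 ratio of implied level for every listed gene of 7 lists (points, spread vertically only for legibility) with the list median (bar), for old on the left and young male on the right over young female cells. In male cells the 7 matrix genes, the other non-collagen matrix genes, the collagens and the small leucine-rich repeat genes all lie above 0, while in old cells the 7 matrix genes spread from −1.01 to 1.45.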

How the data were processed

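Chondrocyte RNA was alkylated with iodoacetamide for 15 min after 4sU labelling and made into strand-specific poly(A)-selected libraries, per the labels' protocols. The submitters' processing notes name cutadapt 4.5, STAR 2.5.3 and the build EquCab3.0. The kinetic model, gene filter, scaling of synthesis rates (including any scaling by length) and way of combining replicates are not given in the sources used here. The authors deposited 2 tables with 1 synthesis rate (authors' units) and 1 half-life per gene and group, 0 columns per sample, and the column headed young in the age table was read as young female from the labels. Half-lives were read as hours because the ceiling equals ln 2 divided by 0.01 per h.

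Log2 ratios were computed within a table, with no pseudocount or filter, in Python 3.11.15 (pandas 2.3.3, numpy 2.4.6), and scripts were tested on simulated data. The implied level, synthesis times half-life divided by ln 2, and the new fraction assume constant RNA levels. Tests planned for values per sample could not be run. Named genes were all 7 members, the nearest gene to each, and up to 4 genes per list and comparison past 2-fold in synthesis or level. Outside this rule, SOX9, cell type markers and genes described beside genes of similar half-life were also named. Members and lists were chosen with earlier results of these data known. Alternatives were a limit of 0.5, centring on all genes or within 10 half-life deciles, the other table's young female values, and 3 restrictions of the genes admitted.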

Additional observations from a re-analysis of the deposited data

How the results depend on the processing

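Values per sample were not analysed here, so no replicate could be left out, and depth is unknown. No paired analysis was possible because each table held 1 value per gene and group and no columns per sample. With no replicate error, a count was taken as moved beyond 1.5 times and a median beyond 0.05 log2 units. Of 90 alternative counts and medians over the members, 47 were the same, 39 moved and 4 medians turned sign. Of 237 alternative ratios of single members, 8 turned sign, 0 of them past 2-fold, 3 fell under the limit (SNORC synthesis in male cells by both versions of the other table's young female value, and the HAPLN1 level in old cells, −0.94, by the version that kept the offset between tables), and 1 passed it (the CILP half-life in old cells after centring). The 8 were, after centring on all genes, the half-life of COMP by age (0.049) and by sex (−0.18) and MATN3 synthesis by sex (0.037), and, inside half-life deciles, the SNORC level by age (−0.020) and by sex the half-lives of ACAN (−0.0056), COMP (−0.42) and SNORC (−0.018) and the MATN3 level (−0.035). The 237 include the 3 restrictions of the genes admitted, which by construction leave a single member's ratio as it was and so could not move it. The version that removes the offset was chosen after seeing the data. The other causes were not tested.

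At a limit of 0.5, half-life counts were 1 by age and 4 by sex, and 3 members passed for synthesis by age. Centring on all genes gave 1 member past the limit for half-life by age, medians of 0.15 and −0.21 for half-life and synthesis by age, and of 0.23 and 1.29 for the sexes. With centring inside half-life deciles, medians by age were 0.14 for half-life and −0.020 for level (turned), and by sex they were −0.0056 for half-life (turned) and 1.07 for level. With the other table's young female values, medians by age were −0.065 for synthesis and 0.12 for level, with 1 member past the limit for level, and by sex 0.58, 0.85 and 1.43 for half-life, synthesis and level; without the offset those for half-life and synthesis were 0.58 and 0.92. Without members at the ceiling (6 left by age, 3 by sex), medians by age were 0.23 for half-life and 0.15 for level, and by sex 0.71, 0.45 and 0.95 for half-life, synthesis and level, with 1 member past the limit for synthesis and 1 for level. Within 1 to 24 h only ACAN and HAPLN1 were left, with medians by age of 0.23, −0.98 and −0.75 (turned) and 1 past the limit for level, and by sex of 0.60, 0.040 and 0.64 with 0 past it for synthesis and 0 for level. In the upper 75% by synthesis rate, which leaves out SNORC and CNMD, medians by age were 0.20 for synthesis (turned) and 0.24 for level, and by sex 0.63, 0.45 and 0.95, with 2 past the limit for synthesis and 2 for level.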

Other observations

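HAS2, which makes the hyaluronan that carries aggrecan, had the largest kinetic difference of any listed gene of the aggrecan assembly list. Its half-life was 1.48 h in young female and 0.0465 h in old cells, with a log2 ratio of −4.99 for half-life and 4.85 for synthesis, while its implied level ratio was −0.14. A half-life that short lies outside the range that 4 h of labelling resolves, and the split between synthesis and half-life there was not tested. The synthesis and half-life ratios are not separate measurements, so their opposite signs may share an error. In male cells the HAS2 half-life was 1.11 h, with log2 ratios of −0.43 for half-life and 0.07 for synthesis. TNFAIP6, which modifies hyaluronan by attaching protein chains to it, had a half-life of 3.43 h in young female and 10.0 h in male cells, with synthesis at −2.25 and implied level at −0.70.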
